A study of Mus musculus with 18 samples.

Results

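Granule neuron progenitors (GNPs) of NdpKO;Ptch+/- mice, which carried both a null allele of Ndp and 1 mutant copy of Ptch1, were compared with wild-type GNPs on Illumina MouseWG-6 v2 expression arrays. The comparison used 8 of the 18 arrays of the series, 4 a group, and arrays were assigned to a group by their titles. All cells were isolated from cerebella at postnatal day 6 by density gradient and pre-plating, and the study states that arrays of a group came from separate animals. GNPs of both single mutants, Ptch+/- and NdpKO, were set beside them with 4 arrays each. Wild-type and Ptch+/- arrays were labelled C57Bl/6 and NdpKO arrays mixed, whereas 3 compound mutant arrays carried no strain label and 1 was labelled mixed. The study states that controls came from the breeding cohort of the compound mutants. The Ndp null is a lacZ knock-in on the X chromosome, so that mutants of Ndp were males, whereas control animals could be of either sex. From the labels alone, genotype and strain background cannot be told apart in the differences below. The source and genotype labels of NdpKO;Ptch+/- array 2 read Ndp knockout, against its title. Values were on the log2 scale, and 9651 probes of 7045 genes, of 19057 genes with a probe, averaged at or above 5 in at least 1 of both groups. Level 5 lay slightly above the signal of unexpressed probes, and the median of every array was 4.13.

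Ptch1 is the receptor that holds hedgehog signalling in check, and loss of 1 copy in mice predisposes GNPs to medulloblastoma. Norrin, the secreted product of Ndp, activates canonical Wnt signalling in endothelial cells through Frizzled4 with the co-receptors Lrp5 and Tspan12, and maintains the blood-brain barrier of the cerebellum. GNPs proliferate in the outer layer of the postnatal cerebellum before they exit the cell cycle, migrate inward and mature into granule neurons. Preparations of these cells also hold glia, phagocytes and vessel fragments, and arrays of such bulk RNA cannot separate a smaller number of cells of a type from less RNA per cell.

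The genotype was examined first. Ptch1 read 8.56, 8.70, 8.64 and 8.63 in the wild-type arrays and 8.12, 7.80, 8.23 and 8.11 in the compound mutant arrays. The groups did not overlap, and the difference of -0.57 ± 0.10 (SE) on the log2 scale missed the threshold of 0.05 (adjusted p = 0.0835, limma, adjusted by Benjamini-Hochberg over 45281 probes). It passed when dim probes were filtered out first (adjusted p = 0.0221). Prm1, which encodes the sperm protamine 1, read 10.66, 9.92, 9.79 and 9.90 in the compound mutants and 4.12, 4.13, 4.12 and 4.11 in wild type, at least 33.6-fold higher (adjusted p = 2.86e-10). The same probe lay between 10.13 and 10.51 in Ptch+/- arrays and between 4.11 and 4.12 in NdpKO arrays. NdpKO;Ptch+/- array 2, whose labels disagree, thus read Prm1 at the level of the arrays with a Ptch1 mutation and not at that of the NdpKO arrays. With this array counted as NdpKO, the adjusted p of Prm1 was 0.123. The Ndp probe stayed at background in both groups, with 4.13, 4.11, 4.13 and 4.12 in wild type and 4.13, 4.13, 4.10 and 4.11 in the compound mutants, and so did not report the deletion. Xist, the RNA that females make from the inactive X chromosome, lay between 4.10 and 4.12 in all 8 arrays compared and in all NdpKO arrays. Of the Ptch+/- arrays 1 read 10.02 for Xist, so that the probe detected the RNA and no array of either compared group held it.

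Few genes separated the compound mutants from wild type. Of all 45281 probes 23 were called at an adjusted p below 0.05, a share of 0.0508%, with 15 lower (0.0331%) and 8 higher (0.0177%). Among the 9651 probes at or above level 5, 19 probes of 18 genes were called, 12 genes lower and 6 higher. Groups did not overlap in 596 of these probes (6.18%), 305 of them higher and 291 lower in the compound mutants. The median difference over the probes was 0.0059. The number of calls depended on single arrays. It fell to 13 without NdpKO;Ptch+/- array 3, to 14 without array 4 of that group and to 15 without wild-type array 2, and rose to 58 without wild-type array 4. Without NdpKO;Ptch+/- array 2, the array with disagreeing labels, it was 29. Fitted to the 8 arrays alone, without the spread of the single mutants, 3 probes were called, 2 higher and 1 lower. At most 1 of the 12 genes called lower thus kept its call in that fit. Each of the 18 genes lost its call in at least 1 of 16 alternatives. For Prm1, Cd44, Cd83, Tlr2, Fcrls and Hspa1a this was 1 alternative, for Gpnmb 2 and for Atf3 4.

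**Figure D1:**
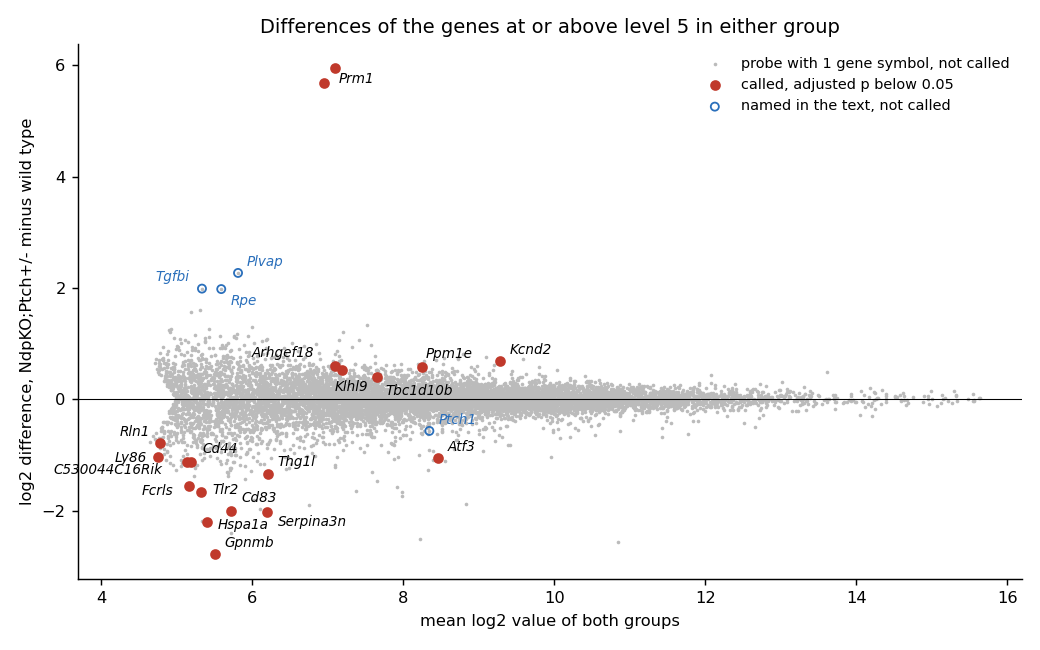
Log2 difference between NdpKO;Ptch+/- and wild-type GNPs (vertical axis) against the mean log2 value of both groups (horizontal axis) for the 9651 probes at or above level 5 in either group. Called probes (red) with a symbol lie at differences of -2.78 to 5.95, and most genes called lower are dim, with a group mean below 5.

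The genes that were lower in the compound mutants were led by genes of activated phagocytes. Gpnmb, a membrane glycoprotein of lysosome-rich macrophages, was among them. The array values were 7.56, 6.17, 6.52 and 7.35 in wild type and 4.11, 4.12, 4.12 and 4.12 in the compound mutants. All 4 mutant arrays thus lay at background, which makes Gpnmb at least 3.73-fold lower (difference -2.78 ± 0.34 (SE), adjusted p = 0.0109). Cd83, a surface protein of activated microglia and dendritic cells, read 6.33, 6.37, 6.80 and 7.38 in wild type against 4.39, 5.01, 4.66 and 4.79. A single mutant array reached level 5 there, and the gene was at least 3.29-fold lower (difference -2.01 ± 0.20 (SE), adjusted p = 0.00248). For Tlr2, the receptor for bacterial lipoproteins, the wild-type arrays gave 6.15, 5.59, 6.28 and 6.62 and the mutants 4.25, 4.47, 4.43 and 4.84. No mutant array came within reach of the lowest wild-type array, and the gene was at least 2.23-fold lower (adjusted p = 0.00458).

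Other genes of these cells moved the same way. Fcrls, an Fc receptor-like scavenger receptor of microglia, read 6.33, 5.40, 5.75 and 6.29 in wild type and 4.26, 4.50, 4.50 and 4.28 in the compound mutants on the probe that was called, with no overlap (difference -1.56 ± 0.17 (SE), adjusted p = 0.00458). A brighter probe of Fcrls showed a similar difference of -1.46 ± 0.38 (SE) that missed the threshold (adjusted p = 0.331). Ly86, the secreted partner of the Toll-like receptor homologue Cd180, was dim in wild type at 5.54, 4.84, 4.98 and 5.71 and at background in the mutants at 4.26, 4.24, 4.24 and 4.21. Of the 4 wild-type arrays 2 were themselves below level 5 for Ly86, and its call (adjusted p = 0.0469) was lost in 10 of 16 alternatives. Cd44, the receptor for hyaluronan that activated glia and leukocytes carry, read 5.88, 5.68, 5.50 and 5.96 in wild type and 4.61, 4.87, 4.47 and 4.60 in the compound mutants. It was at least 1.69-fold lower, and with 0.000593 had the lowest adjusted p of the genes that fell. Of 9 Cd44 probes, the other 8 lay below level 5 in both groups.

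Of the 20 listed genes of phagocyte activation 14 were at or above level 5, and 3 of them fell while none rose. Over all 7042 genes at or above level 5, 10 were called lower (0.142%) and 6 higher (0.0852%). At an unadjusted p below 0.05, 7 of the 14 were lower and 0 higher, where 6.66% of all 7042 genes were lower and 7.53% higher. This list and those below were chosen with earlier results of these data known, so such shares describe and do not test. Gpnmb, Cd83 and Tlr2 averaged 4.12, 4.71 and 4.50 in the mutants, and so met level 5 through wild type alone. The median difference of the list was -0.41, against 0.01 over the 7042 genes. Lgals3, a galectin of phagocytes, gave values of 9.23, 8.69, 8.42 and 8.50 in wild type and 6.52, 7.35, 6.76 and 7.94 in the mutants without overlap, although its difference of -1.57 missed the threshold (adjusted p = 0.457). The chemokine genes Ccl3 and Ccl4 differed by 0.13 and 0.10.

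The resident microglia list, which reads Fcrls by its brighter probe, gave no call. Of its 21 genes only 6 were at or above level 5, with a median difference of -0.77. At an unadjusted p below 0.05, 4 of the 6 were lower and 0 higher, against 6.66% and 7.53% of all 7042 genes. C1qc, a chain of the first complement component, read 6.88, 6.64, 6.52 and 7.66 in wild type and 4.62, 5.66, 5.45 and 4.73 in the compound mutants (difference -1.81 ± 0.41 (SE), adjusted p = 0.217), and C1qb differed by -0.87 (adjusted p = 0.502). Both groups stayed apart in these genes without passing the test. Among 7 defining markers of microglia and leukocytes, C1qb alone was at or above level 5 in either group, and Cx3cr1, P2ry12, Ptprc, Aif1, Csf1r and Tyrobp were below it. The summed linear level of the 7 markers was 305 to 488 in wild-type arrays and 208 to 286 in mutant arrays. With the others below level 5, this sum mainly follows C1qb and is no evidence from 7 markers. The part of cell number in the lower phagocyte genes was not tested.

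**Figure D2:**
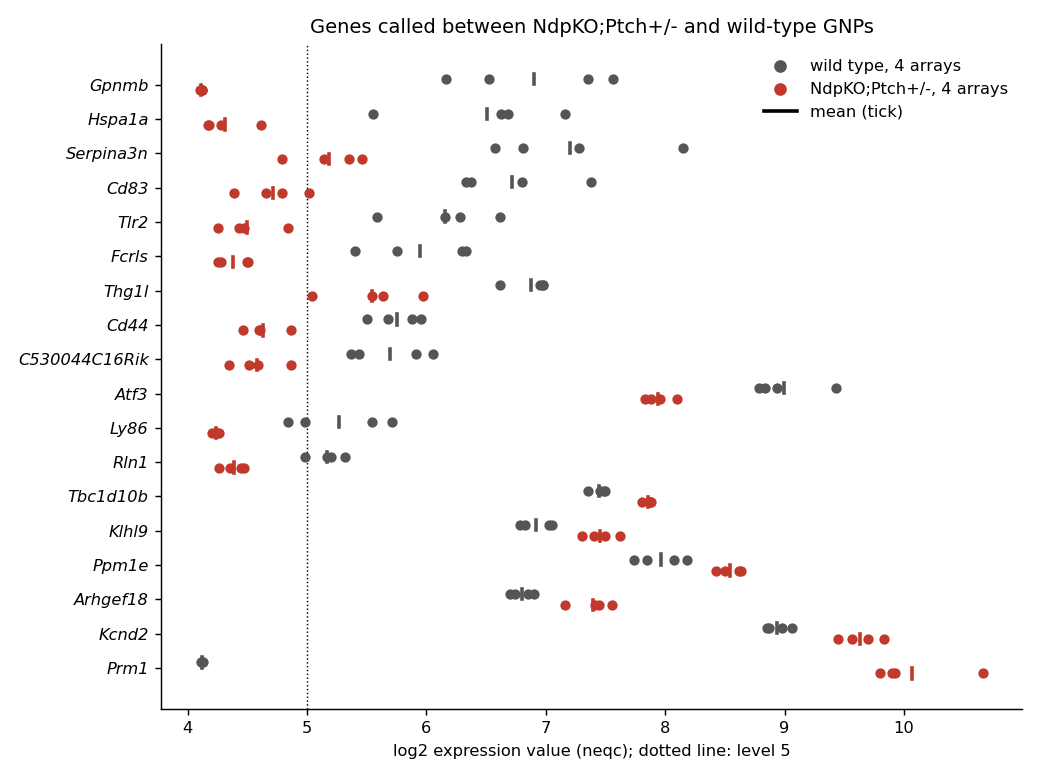
Log2 values of the 18 genes called between 4 wild-type (grey) and 4 NdpKO;Ptch+/- arrays (red), 1 point an array and a tick at each group mean, with 1 probe a gene. In all 18 the groups do not overlap, and in 8 of the 12 genes that fell every mutant array lies below level 5 (dotted line).

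Hspa1a was the 1 heat shock gene called lower at or above level 5. Hspa1a and Hspa1b encode the nearly identical inducible Hsp70 proteins that refold damaged proteins, and Hspb1 encodes a small chaperone. Since the 3 genes had the largest differences of the heat shock list, the 250 bases before their transcription starts are shown, on build GRCm38.p6 from RefSeq in the direction of the gene. Capitals mark the heat shock element core GAANNTTC, which reads the same on both strands. The windows are chr17:34972157-34972406 (minus strand) for Hspa1a, chr17:34959239-34959488 (minus strand) for Hspa1b and chr5:135887669-135887918 (plus strand) for Hspb1.
Hspa1a: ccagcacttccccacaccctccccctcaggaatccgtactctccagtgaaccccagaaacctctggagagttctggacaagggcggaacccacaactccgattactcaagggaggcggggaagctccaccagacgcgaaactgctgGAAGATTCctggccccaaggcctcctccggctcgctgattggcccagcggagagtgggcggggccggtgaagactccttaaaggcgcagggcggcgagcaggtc
Hspa1b: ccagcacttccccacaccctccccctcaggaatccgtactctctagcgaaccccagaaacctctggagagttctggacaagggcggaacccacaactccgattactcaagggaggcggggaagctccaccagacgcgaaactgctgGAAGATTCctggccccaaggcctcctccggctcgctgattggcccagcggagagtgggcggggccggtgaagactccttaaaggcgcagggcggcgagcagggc
Hspb1: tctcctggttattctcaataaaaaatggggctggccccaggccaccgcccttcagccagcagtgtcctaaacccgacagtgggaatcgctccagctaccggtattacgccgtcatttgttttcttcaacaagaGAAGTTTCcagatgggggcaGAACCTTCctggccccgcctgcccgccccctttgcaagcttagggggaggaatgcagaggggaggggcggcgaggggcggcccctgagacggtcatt

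Hspa1a and Hspa1b differed at 3 of these 250 bases, and each held the element once, 104 bases before the start. Hspb1 held it at 117 and 97 bases before the start. Of 14 listed heat shock genes with such a window 6 held the element, or 42.9%, against 6.69% of all 32851 windows. Among the 19 called genes with a window, Hspa1a and Hspa1b alone held it, or 10.5%, and their windows are near copies of each other. A match of letters is given as a description and does not mark a bound site.

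The called Hspa1a probe read 7.16, 6.62, 5.55 and 6.68 in wild type and 4.17, 4.28, 4.18 and 4.62 in the compound mutants. All mutant arrays lay below level 5, at least 2.84-fold lower (difference -2.19 ± 0.25 (SE), adjusted p = 0.00484). A brighter Hspa1a probe read 9.93, 9.57, 8.96 and 9.44 in wild type and 6.72, 7.18, 6.94 and 7.05 in the mutants, 5.67-fold lower (adjusted p = 0.0747). This second probe kept the groups apart by more than 1 unit and missed the threshold. For Hspa1b the brightest probe differed by -2.18 ± 0.43 (SE, adjusted p = 0.140). Another Hspa1b probe was called (adjusted p = 0.0216) but lay at background in both groups, with means of 4.19 and 4.12. Probes of Hspa1a and Hspa1b can bind RNA of either gene, so the values of the pair are uncertain as to the source.

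Hspb1 spread widely among the mutants, with 8.34, 7.23, 7.56 and 7.67 in wild type and 4.37, 7.02, 5.37 and 6.48 in the compound mutants (difference -1.89 ± 0.53 (SE), adjusted p = 0.382). The groups did not overlap in Hspb1, where mutant array 2 came within reach of wild type and array 1 lay at background. Of 21 heat shock genes 14 were at or above level 5, and by the brightest probe of each gene 0 were called. At an unadjusted p below 0.05, 8 were lower and 1 higher, against 6.66% and 7.53% of all 7042 genes. The median difference was -0.27. Hspa8, the constitutive Hsc70, differed by -0.21, Hsp90aa1 by -0.19 and Hsp90b1 of the endoplasmic reticulum by 0.01, none of which passed the test. Bag3, a co-chaperone of the inducible Hsp70, read 9.05, 8.79, 8.68 and 8.72 in wild type and 7.90, 8.23, 8.30 and 8.49 in the mutants (adjusted p = 0.398).

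Atf3 was the brightest of the genes that fell. This stress-induced transcription factor read 9.43, 8.93, 8.83 and 8.79 in wild type and 7.88, 8.10, 7.83 and 7.95 in the compound mutants. The lowest wild-type array lay above the highest mutant array, and Atf3 was 2.07-fold lower (difference -1.05 ± 0.14 (SE), adjusted p = 0.0168). No other immediate-early gene was called. Of 23 such genes 19 were at or above level 5, with a median difference of -0.19. At an unadjusted p below 0.05, 3 were lower and 0 higher, against 6.66% and 7.53% of all 7042 genes. Fos differed by -0.17 and Egr1 by -0.18, both transcription factors of the first response to stimulation. In the integrated stress list 0 of 17 genes were called. There, Chac1, a glutathione-degrading enzyme, read 8.07, 11.12, 11.02 and 11.29 in the compound mutants against 9.78, 10.21, 11.57 and 11.67 in wild type, so that mutant array 1 stood apart from the rest of its group.

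Serpina3n, a secreted protease inhibitor of reactive astrocytes, was the 1 astrocyte gene that fell. Its arrays read 8.15, 7.28, 6.57 and 6.80 in wild type and 4.79, 5.14, 5.35 and 5.46 in the compound mutants. The groups were separated by more than 1 unit, and the gene was 4.04-fold lower (difference -2.01 ± 0.30 (SE), adjusted p = 0.0416), a call that was lost in 8 of 16 alternatives. Gfap, the intermediate filament of astrocytes, read 10.65, 10.01, 9.21 and 9.21 in wild type and 8.20, 7.90, 7.31 and 8.19 in the mutants, without overlap and without passing the test (adjusted p = 0.186). Of 19 astrocyte and Bergmann glia genes at or above level 5, 7 were lower and 0 higher at an unadjusted p below 0.05. Over all 7042 genes these shares were 6.66% and 7.53%, and the median difference of the list was -0.42. Against wild type the median of this list was -0.68 in Ptch+/- and -0.70 in NdpKO. Slc1a3, the glutamate transporter of Bergmann glia, differed by -0.19, the transcription factor Sox9 by -0.10 and the water channel Aqp4 by -0.59. The 6 defining markers summed to 10400 to 13770 in wild-type arrays and 7970 to 10779 in mutant arrays on the linear scale. All 6 were at or above level 5 in both groups, but the sum mainly follows Slc1a3. Its mean was 12.82 in wild type and 12.63 in the mutants. Whether fewer astrocytes were carried over was not tested.

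The remaining genes called lower belong to no list. Thg1l, the enzyme that adds a guanylate to histidine tRNA, read 6.95, 6.98, 6.61 and 6.97 in wild type and 5.97, 5.54, 5.04 and 5.64 in the compound mutants. All mutant arrays were below all wild-type arrays, 2.52-fold lower on average (difference -1.33 ± 0.18 (SE), adjusted p = 0.0196). C530044C16Rik, a transcript with no gene name, differed by -1.12 (adjusted p = 0.0196), and Rln1, which encodes the hormone relaxin 1, by -0.78 (adjusted p = 0.0328). Both averaged below level 5 in the mutants. The call of Rln1 was lost in 9 of 16 alternatives, that of Thg1l in 5 and that of C530044C16Rik in 4. A further probe called lower, ILMN_2690603, has no symbol. It read 8.87, 8.42, 8.49 and 9.01 in wild type and 4.12, 4.12, 4.12 and 4.12 in the compound mutants, at least 13.0-fold lower (adjusted p = 1.11e-05). This probe was bright in every wild-type array and at background in every mutant array. Trp53rka, a kinase of the p53 pathway, was called while below level 5 in both groups.

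Fewer genes were called higher in the compound mutants, and apart from Prm1 their differences were below 1 on the log2 scale. Kcnd2, which encodes the Kv4.2 potassium channel of maturing granule neurons, read 9.83, 9.56, 9.70 and 9.44 in the compound mutants and 8.87, 8.86, 8.98 and 9.06 in wild type. Every mutant array was above every wild-type array, a rise of 1.62-fold (difference 0.69 ± 0.09 (SE), adjusted p = 0.0196). Arhgef18, a guanine nucleotide exchange factor, read 7.41, 7.44, 7.55 and 7.16 against 6.90, 6.70, 6.75 and 6.85, which is 1.51-fold higher (adjusted p = 0.0416). Ppm1e, a serine and threonine phosphatase of the nucleus, read 8.42, 8.62, 8.63 and 8.50 against 7.74, 7.85, 8.07 and 8.18, which is 1.50-fold higher (adjusted p = 0.0483). The calls of Arhgef18 and Ppm1e were lost in 11 of 16 alternatives each, that of Klhl9 in 8, that of Tbc1d10b in 6 and that of Kcnd2 in 5. Klhl9, an adaptor of the Cul3 ubiquitin ligase, read 7.30, 7.62, 7.40 and 7.49 in the mutants against 6.82, 6.78, 7.02 and 7.05 (adjusted p = 0.0216). Tbc1d10b, an activator of Rab GTPases, read 7.88, 7.87, 7.87 and 7.81 against 7.46, 7.49, 7.48 and 7.35 (adjusted p = 0.0196). Klhl9 rose 1.45-fold and Tbc1d10b 1.33-fold. A probe without a symbol, ILMN_2722650, rose by 0.27 (adjusted p = 0.0483).

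The naming rule added the 9 uncalled higher genes of lowest unadjusted p whose groups did not overlap. Their number and lack of overlap were set by the rule, since 305 probes in all were higher without overlap. Kdm5b, a histone H3K4 demethylase, differed by 0.73 (adjusted p = 0.0835), Tpbg, a membrane glycoprotein that dampens Wnt signalling, by 0.52 (adjusted p = 0.0632) and Bicral, a subunit of a chromatin remodelling complex, by 0.46 (adjusted p = 0.0568). Srprb, Akap1, Copg1, Phf2, Wdr82 and Plvap completed the set, with adjusted p from 0.0912 to 0.115. On the lower side the nearest were Nfic, a transcription factor of the nuclear factor I family, with -0.42 (adjusted p = 0.0502), the mitochondrial ribosomal protein gene Mrpl3 with -0.51 (adjusted p = 0.0568) and Ube2cbp with -1.22 (adjusted p = 0.0593). A brighter probe of Mrpl3 differed by 0.11, the other way, and a brighter probe of Wdr82 by -0.94 where the named one differed by 1.08. The probes of Mrpl3 and of Wdr82 thus disagreed in direction.

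Genes of granule neuron maturation leaned higher. Of 25 such genes at or above level 5, 1 rose, namely Kcnd2, against 0.0852% of the 7042 genes. At an unadjusted p below 0.05, 6 were higher and 1 lower, against 7.53% and 6.66% of the 7042 genes. The median difference was 0.19, whereas it was 0.31 in Ptch+/- and 0.33 in NdpKO against wild type. Grin2b, a subunit of the NMDA receptor, read 7.42, 6.55, 7.29 and 6.92 in the compound mutants and 6.22, 6.17, 6.44 and 6.43 in wild type (adjusted p = 0.446). Rims1, a scaffold of the presynaptic active zone, differed by 0.95 (adjusted p = 0.345), and Cntn2, an adhesion molecule of newly postmitotic granule neurons, by 0.23 (adjusted p = 0.361). None of these passed the test. Rbfox3, a splicing factor of mature neurons, went the other way with -0.19 (adjusted p = 0.451). Among 7 transmitter receptor genes at or above level 5, 0 were called, and Grm4, a metabotropic glutamate receptor of granule neurons, read 6.67, 6.84, 6.86 and 6.23 against 5.12, 6.18, 5.25 and 6.35.

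Progenitor identity and proliferation genes did not pass the test. Of 10 progenitor genes at or above level 5, 0 were called and their differences ran from -0.10 to 0.28. Zic1, a transcription factor of granule cells, read 12.84, 12.77, 13.00 and 12.70 in the compound mutants against 12.72, 12.73, 12.89 and 12.91 in wild type, and these values overlapped. Its relative Zic2 differed by 0.28 (adjusted p = 0.567). The Atoh1 probe lay at background in every array, and that of Pax6 was below level 5. The other 5 of 7 progenitor markers with a probe averaged at or above level 5 in both groups. Of 24 cell cycle genes 0 were called, and the median difference was 0.05. At an unadjusted p below 0.05, 2 were higher and 1 lower, against 7.53% and 6.66% of all 7042 genes. Ribosomal protein genes had a median difference of -0.04 over 24 genes and respiratory chain genes one of -0.04 over 31.

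Hedgehog pathway genes were examined from receptor to target. Of 19 genes 9 were at or above level 5, and 0 were called. At an unadjusted p below 0.05, 2 were higher and 1 lower, against 7.53% and 6.66% of all 7042 genes. The lower gene was Ptch1 itself. Smo, the transducer that Ptch1 inhibits, differed by -0.47 ± 0.24 (SE, adjusted p = 0.773), and Sufu, which restrains the Gli factors, by 0.97 ± 0.33 (SE, adjusted p = 0.518). Gli2 differed by 0.25 and Gli3 by -0.08. Of the targets, Ccnd2 read 12.53, 12.12, 12.21 and 12.19 in the compound mutants and 11.89, 12.02, 12.06 and 12.05 in wild type, apart but not called (adjusted p = 0.458), and Ccnd1 differed by 0.17 ± 0.18 (SE, adjusted p = 0.946), with overlapping groups. Ccnd1 and Ccnd2 encode the D-type cyclins of dividing GNPs. The probes of Gli1 and Mycn lay at background in all 8 arrays, so these targets were not measured.

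In the Norrin and Wnt list 8 of 24 genes were at or above level 5. None was called, and all 8 were lower on average, with a median difference of -0.22. The probes of the receptor Fzd4, the co-receptor Lrp5 and the transcription factor Lef1 were at background. Tspan12, which clusters Frizzled4, read 6.64, 6.57, 6.55 and 6.20 in the compound mutants against 7.27, 6.34, 6.23 and 6.16 in wild type, and these values overlapped. Apcdd1, a Wnt inhibitor that Wnt signalling induces in endothelium, read 9.47, 9.82, 9.64 and 9.96 against 10.89, 10.37, 10.22 and 10.21 without overlap (adjusted p = 0.288). Dkk3, a secreted protein of the Dickkopf family, differed by -0.44 ± 0.10 (SE, adjusted p = 0.217), and Axin2, a feedback target of Wnt signalling, by -0.34 (adjusted p = 0.740).

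Plvap, a protein of fenestrated and leaky vessels, had the largest positive difference after Prm1. It read 6.26, 7.43, 6.64 and 7.47 in the compound mutants and 4.32, 4.39, 4.29 and 5.71 in wild type. Wild-type array 4 alone of its group exceeded level 5, and no mutant array overlapped it. Plvap was at least 3.42-fold higher, but with a difference of 2.27 ± 0.41 (SE) it missed the threshold (adjusted p = 0.115). It passed without wild-type array 4 (adjusted p = 0.0286), within a range of 0.0110 to 0.499 over 16 alternatives. In the single mutants the values were 4.54, 4.77, 4.56 and 4.36 for Ptch+/- and 4.81, 5.22, 6.17 and 6.42 for NdpKO. The Ptch+/- arrays thus all stayed below level 5, whereas NdpKO arrays lay between wild type and the compound mutants on average.

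Other vessel genes were not called either, and their differences ran both ways. Emcn, a sialomucin of venous and capillary endothelium, read 8.32, 9.64, 8.78 and 9.65 in the compound mutants against 9.20, 8.46, 7.84 and 7.91 in wild type, overlapping, with a difference of 0.74 ± 0.39 (SE, adjusted p = 0.776). Pecam1, the adhesion molecule CD31 of all endothelium, differed by 0.03 ± 0.50 (SE) and Cldn5, the tight junction claudin of barrier vessels, by -0.51 ± 0.29 (SE). Angpt2, a vessel-destabilising ligand of the Tie2 receptor, read 5.28, 7.96, 7.48 and 8.35 against 7.69, 7.39, 7.67 and 7.70, so that mutant array 1 lay far below the other 3. Without that array the difference was 0.31, against -0.35 with it, and neither passed the test. Vwf, the von Willebrand factor of endothelium, was lower without overlap, at 7.15 ± 0.85 (SD, n = 4) against 8.82 ± 0.63 (SD, n = 4) (adjusted p = 0.306). Slco1c1, the thyroid hormone transporter of brain endothelium, read 6.42, 7.65, 7.02 and 7.40 against 9.79, 9.11, 8.33 and 8.20 (adjusted p = 0.292). Both stayed apart from wild type without a call.

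Of 15 barrier endothelium genes at or above level 5, 0 were called, 14 were lower on average and the median difference was -0.21. Against wild type the median of this list was -0.75 in Ptch+/- and -0.67 in NdpKO. The list of vascular activation gave 7 lower and 6 higher of 13, with a median of -0.29 that changed sign in 2 of 11 alternatives. Its median was -0.79 in Ptch+/- and -1.10 in NdpKO. Plvap, Emcn, Angpt2 and Esm1 are genes that the study itself singled out, so the lists are no independent evidence of direction. The 5 defining endothelial markers summed to 4203 to 9531 in wild-type arrays and 3143 to 6863 in mutant arrays on the linear scale. All 5 were at or above level 5, but the sum mainly follows Cldn5 and Esam, which differed by -0.51 and -0.19. Pecam1, Cdh5 and Emcn weigh little in it and differed by 0.03, 0.19 and 0.74. Extracellular matrix genes had a median difference of -0.26 over 18 genes. At an unadjusted p below 0.05, 1 was lower and 0 higher, against 6.66% and 7.53% of all 7042 genes.

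**Figure D3:**
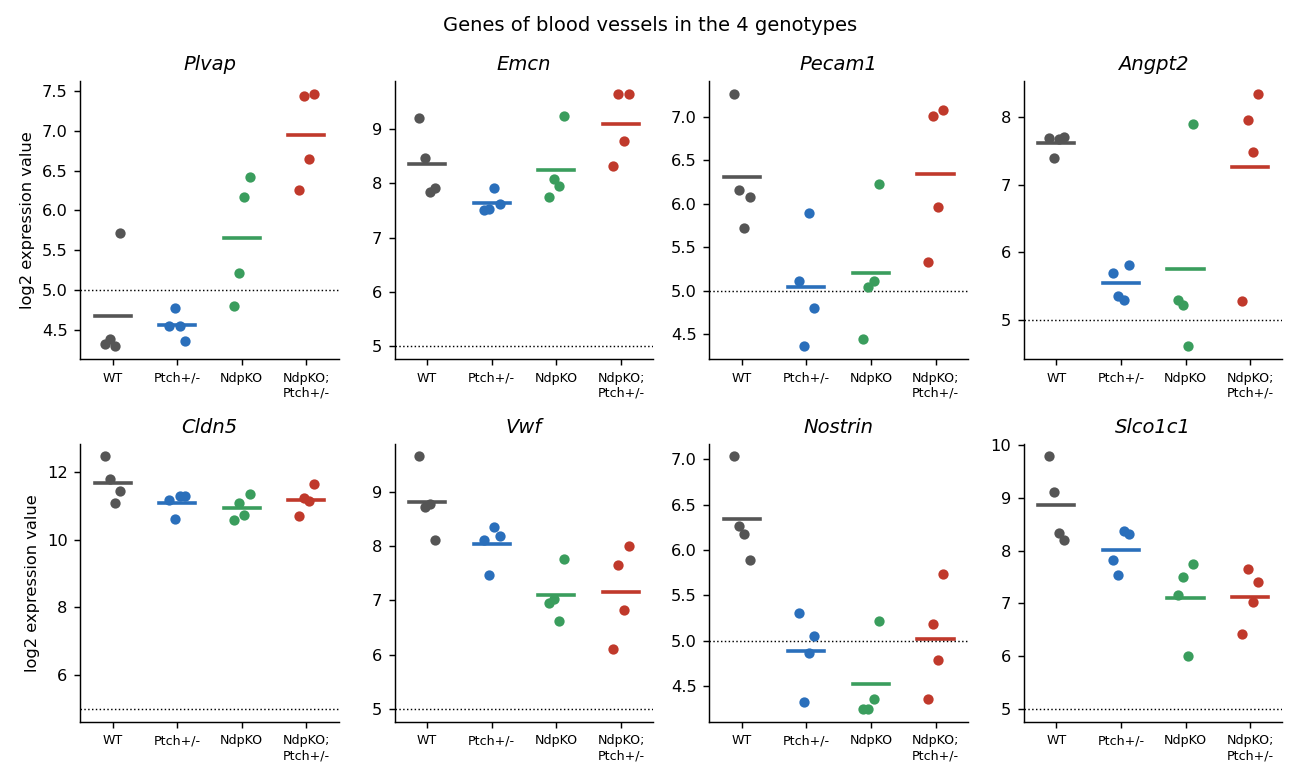
Log2 values of 8 vessel genes in the 4 genotypes, 1 point an array (4 a genotype), a line at each mean, a dotted line at level 5 and a separate vertical scale for each gene. Plvap is highest in the compound mutants at 6.95 on average, whereas Vwf, Nostrin and Slco1c1 average lower there than in wild type. These 3 average 7.15, 5.01 and 7.12 in the compound mutants and 7.09, 4.52 and 7.10 in NdpKO.

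**Figure D4:**
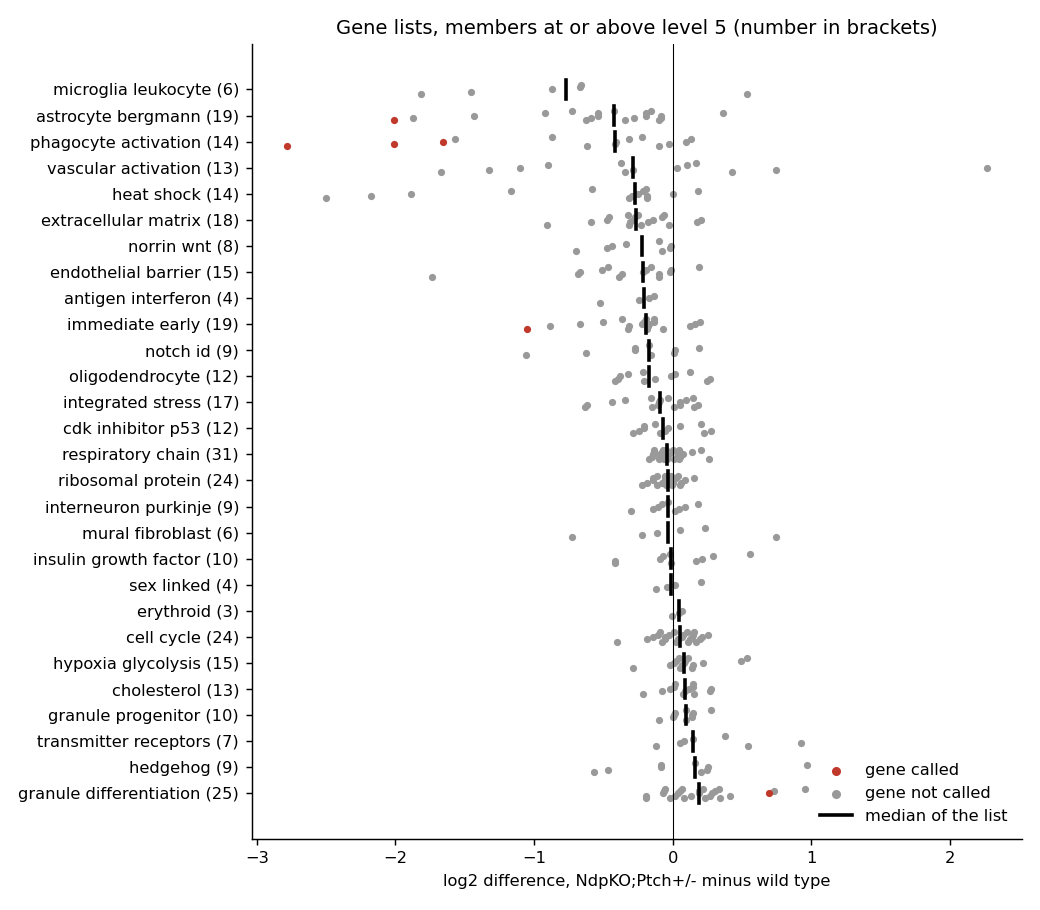
Log2 difference between NdpKO;Ptch+/- and wild-type GNPs (horizontal axis) of each gene at or above level 5 in 28 gene lists, with called genes in red and the list median as a black line. Medians run from -0.77 for microglia and leukocytes to 0.19 for granule neuron differentiation.

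Among the lists not yet described, antigen presentation and interferon genes had a median difference of -0.21 over 4 genes and Notch and Id genes one of -0.17 over 9. Id4, an inhibitor of bHLH factors in glia and precursors, differed by -1.06 ± 0.44 (SE, adjusted p = 0.665). Cholesterol synthesis genes had a median of 0.09 over 13 genes, where Sqle, squalene epoxidase, differed by 0.27 (adjusted p = 0.489). Hypoxia and glycolysis genes had a median of 0.09 over 15, oligodendrocyte genes -0.17 over 12 and inhibitors of the cell cycle with p53 targets -0.07 over 12. Interneuron and Purkinje cell genes, mural and fibroblast genes, insulin and growth factor genes, erythroid genes and sex-linked genes had medians between -0.03 and 0.05. None of these lists held a called gene.

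Values of the single mutants were set beside these results. The comparisons of each mutant with wild type share the wild-type arrays, and their values are given side by side without a test of likeness. In 11 of the 12 genes called lower, all 12 mutant arrays of the 3 mutant genotypes lay below all 4 wild-type arrays. The same held upward in 5 of the 6 genes called higher. In all these genes the compound mutant arrays were apart from wild type by the naming rule. The single-mutant arrays are judged against the same wild-type arrays, and the share over all genes was not counted. Cd83 differed from wild type by -2.18 in Ptch+/-, -2.26 in NdpKO and -2.01 in the compound mutants. For Atf3 these differences were -0.69, -1.03 and -1.05, and for Kcnd2 they were 0.71, 0.63 and 0.69. Gpnmb was graded among the Ptch+/- arrays, which read 4.18, 5.51, 4.47 and 5.65, and at background in all NdpKO arrays. The exceptions were Thg1l and Prm1, the latter with no signal in NdpKO arrays.

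**Figure D5:**
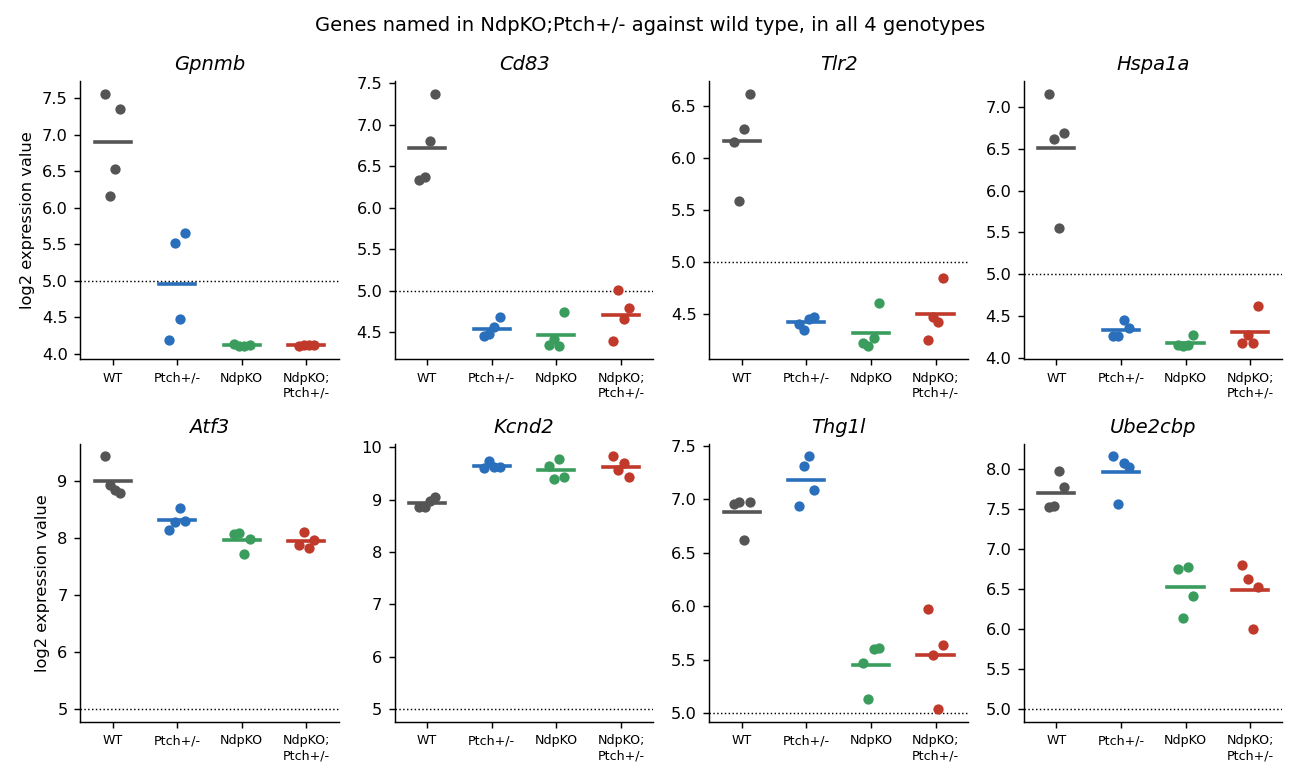
Log2 values of 8 genes named in the comparison of NdpKO;Ptch+/- with wild type, in the 4 genotypes, 1 point an array (4 a genotype), a line at each mean, a dotted line at level 5 and a separate vertical scale for each gene. Wild type stands apart from all 3 mutant genotypes in Gpnmb, Cd83, Tlr2, Hspa1a, Atf3 and Kcnd2, whereas Thg1l and Ube2cbp are low in both genotypes that lack Ndp.

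The compound mutants were then compared with each single mutant. Against Ptch+/- GNPs 7 probes were called (0.0155%), all lower, and against NdpKO GNPs 2 were called (0.00442%), both of Prm1. Thg1l read 6.94, 7.31, 7.40 and 7.09 in Ptch+/- arrays and 5.47, 5.13, 5.60 and 5.61 in NdpKO arrays. The compound mutants were therefore lower than Ptch+/- (-1.64 ± 0.18 SE, adjusted p = 0.00818), while they differed from NdpKO by 0.09 ± 0.18 (SE). Ube2cbp, which binds a ubiquitin-conjugating enzyme, read 6.80, 6.63, 6.01 and 6.52 in the compound mutants, 7.53, 7.54, 7.97 and 7.78 in wild type, 8.16, 7.56, 8.08 and 8.03 in Ptch+/- and 6.76, 6.14, 6.78 and 6.41 in NdpKO. It fell against Ptch+/- (adjusted p = 0.0364) and missed the threshold against wild type. The unnamed probe ILMN_2690603 had intermediate values of 5.80, 6.91, 6.35 and 7.58 in Ptch+/- (adjusted p = 0.00818 for the compound mutants against Ptch+/-) and averaged 4.12 in NdpKO. Tpmt, a thiopurine methyltransferase, fell from 6.49 in Ptch+/- to 4.47 in the compound mutants, yet wild type was at 4.56 as well. The count against Ptch+/- rested on single arrays, since it was 232 without NdpKO;Ptch+/- array 1, 13 without Ptch+/- array 4 and 11 without Ptch+/- array 2. Against NdpKO it was 7 without NdpKO;Ptch+/- array 1 and 8 without NdpKO array 4.

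Whether the compound difference equalled the sum of both single differences was tested as an interaction. This test called 224 probes (0.495%), 100 positive and 124 negative. A positive value means that the compound mutants lay higher than that sum. For 7 genes called lower, Cd44, Cd83, Tlr2, Fcrls, Hspa1a, Serpina3n and C530044C16Rik, the sum of the single differences falls at a level of 2.00 to 3.12, below 4.09, the lowest value of any probe on any array. The positive interaction of these genes is set by the floor of the scale and is no measure of how the mutations combine. Among the genes called higher, Klhl9 had an interaction of -0.63 ± 0.10 (SE, adjusted p = 0.0335) and Tbc1d10b one of -0.43 ± 0.08 (SE, adjusted p = 0.0409). Both are above level 5 in every array, and their rise in the compound mutants was smaller than the sum of the single rises. For Plvap the interaction was 1.42 ± 0.59 (SE, adjusted p = 0.309), and for Ptch1 it was 0.07 ± 0.14 (SE, adjusted p = 0.895). The interaction count rested on single arrays, and was 2 with NdpKO;Ptch+/- array 2 counted as NdpKO. It was 1221 without NdpKO;Ptch+/- array 1 and 1201 without NdpKO array 4, 198 without wild-type array 4, and 26 to 84 without any other of the 16 arrays.

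Positions of the called genes were compared with those of the mutated loci by order along the chromosome. Cd83 and Ly86 lie on the chromosome of Ptch1, 179 and 215 protein-coding genes away. Of the 54 measured genes within 100 genes of Ptch1, 0 were called, with 5 lower and 4 higher at an unadjusted p below 0.05. Within 100 genes of Ndp 0 of 45 were called, with 1 lower and 4 higher. On the X chromosome 0 of 221 measured genes were called, and their median difference was 0.04. Over all 7042 measured genes 16 were called, with 6.66% lower and 7.53% higher at an unadjusted p below 0.05. Of 253 measured genes on the chromosome of Ptch1, 2 were called. With so few calls in all, 0 in these windows says little about position.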

How the data were processed

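GNP RNA was hybridised to Illumina MouseWG-6 v2 arrays. The deposited log2 values had been background-corrected and quantile-normalised by the authors with neqc, so the precision is set by the 4 arrays a group, and quantile normalisation removes any shift common to the whole array. No further normalisation was applied. The members and gene lists were chosen with earlier results of these data known. Of 45281 probes, 34885 had 1 symbol, 18 several and 10378 none in the platform annotation. Fits used limma 3.58.1 under R 4.3.3, with 1 mean for each of the 4 GNP genotypes over 16 arrays, empirical Bayes at default settings, two-sided tests and Benjamini-Hochberg adjustment over all probes (called below 0.05). Lists used the brightest probe of a gene, which left 7042 genes at or above level 5. Folds against a group below 5 are lower bounds, with each array set to at least 5. The 4 same-numbered pairs of arrays correlated at -0.02, 0.06, 0.47 and 0.01. Replicate numbers were not used as pairs in the main fit. Named were Ptch1, Ndp and Prm1, the 15 highest and 15 lowest called genes without overlap (filled by lowest p), the called members and the 3 largest differences of each list, and 18 further genes. Other genes were named after their values were seen. Alternatives covered the fit, the variance model, normalisation, dim probes, 1 disputed label and each array left out. The procedure was tested on simulated data. Promoter windows came from RefSeq.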

Additional observations from a re-analysis of the deposited data

Results flagged for a closer look

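Among 216 groups of 4 arrays examined, 17 held 1 array far from the other 3 on Dixon's test, which by chance marks about 1 group in 20. Wild-type arrays that stood far above the other 3 were array 4 for Plvap (5.71, the others 4.29 to 4.39), array 1 for Tspan12 (7.27, the others 6.16 to 6.34) and array 1 for Mfsd2a (9.98, the others 9.13 to 9.23). Further such arrays were array 4 for C1qb (8.50, the others 7.57 to 7.71), array 2 for Egln1 (5.03, the others 4.35 to 4.43) and array 1 for H2-T23 (5.96, the others 5.59 to 5.65). Wild-type arrays that stood far below the other 3 were array 3 for Thg1l (6.61, the others 6.95 to 6.98), array 2 for Angpt2 (7.39, the others 7.67 to 7.70) and array 3 for Vtn (8.73, the others 9.14 to 9.21). The remaining ones were array 4 for Hes5 (5.27, the highest of the others 7.13) and array 1 for Ankrd37 (4.56, the others 5.26 to 5.35). Among the compound mutants the high arrays were array 1 for Prm1 (10.66, the others 9.79 to 9.92), array 3 for Copg1 (10.84, the others 10.63 to 10.65) and array 1 for Mrpl3 (9.10, the others 8.73 to 8.79). Another was array 1 for Rpl4 (9.99, the others 9.66 to 9.71). The low arrays of that genotype were array 1 for Chac1 (8.07, the others 11.02 to 11.29) and array 1 for Nupr1 (5.72, the others 7.64 to 7.85).

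The difference between the compound mutants and wild type departed from the sum of both single-mutant differences (interaction below the threshold, limma) in 19 named genes. It lay above that sum, on the log2 scale, by 2.43 for Cd83, 2.31 for Hspa1a, 2.31 for Serpina3n, 1.91 for Tlr2, 1.59 for C530044C16Rik, 1.52 for Fcrls and 1.52 for Cd44, all called lower against wild type. In these 7 genes the sum would lie below the lowest value of any probe, so the positive sign is fixed by the floor of the scale and the sizes carry no information on how the mutations combine. For genes not called against wild type it lay above by 1.23 for Cebpb and 0.77 for Dkk3. Negative interactions were -0.77 for Arhgef18, -0.63 for Klhl9 and -0.43 for Tbc1d10b among the genes called higher, and -2.54 for Wdr82, -1.58 for Grin2b, -0.96 for Zic2, -0.70 for Akap1, -0.68 for Ccnd2, -0.62 for Bicral and -0.60 for Phf2 among genes not called. Wild-type arrays that alone stand apart give interactions of either sign too, which cannot be told apart from how the mutations combine. With NdpKO;Ptch+/- array 2 counted as NdpKO, 2 probes were called for the interaction instead of 224.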

How the results depend on the processing

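Counts of called probes depended on the fit. For compound mutants against wild type 23 probes were called, with 3 in the fit of the 8 arrays alone, 12 with a replicate block, 50 with trend and robust variance, 84 when dim probes were filtered out first, 69 when values below 5 were set to 5, and 13 to 58 with 1 array left out. Against Ptch+/- the 7 calls became 1, 1, 36, 33 and 29 in these settings, 28 with array weights, and 5 to 232 with 1 array left out. Against NdpKO the 2 calls became 4 with values set to 5 and 0 with NdpKO;Ptch+/- array 2 counted as NdpKO, and 2 to 8 with 1 array left out. The 224 interaction calls became 72 with a replicate block, 795 with trend and robust variance, 619 with array weights, 1275 with the filter, 1347 with values set to 5, 2 with that array counted as NdpKO, and 26 to 1221 with 1 array left out. With the replicate block 10 of the 23 probes kept their call. No named gene that was called changed direction under any alternative. The cause of these changes was not tested, except that the 8-array fit has fewer degrees of freedom and the filter tests fewer probes. Genes near background have only bounds, and a smaller change there was not detectable.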

Other observations

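Genes outside the naming rule were examined after their values were seen. Tgfbi, a matrix protein induced by transforming growth factor beta, read 4.98, 6.55, 6.60 and 7.20 in the compound mutants and 4.53, 4.24, 4.21 and 4.39 in wild type (difference 1.99 ± 0.37 (SE), adjusted p = 0.118). Rpe, an enzyme of the pentose phosphate pathway, read 5.93, 7.15, 6.63 and 6.61 against 4.43, 4.42, 4.31 and 5.24 (adjusted p = 0.219). Neither was called, and in both every mutant array was above every wild-type array. Car4, a carbonic anhydrase of brain capillaries, read 5.43, 7.25, 6.96 and 6.58 against 8.97, 8.28, 7.86 and 7.69 (adjusted p = 0.217). Neat1, a nuclear long noncoding RNA, read 4.27, 4.40, 4.40 and 4.36 against 4.96, 5.05, 5.82 and 6.66 (adjusted p = 0.190), and all mutant arrays lay below level 5.

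Ube2cbp, Ooep and Tex9, which were lower in the compound mutants without overlap, lie on chromosome 9. Ooep, an oocyte protein gene, is 27 protein-coding genes from Ube2cbp and 51 from Tex9. Ooep read 5.33, 5.47, 5.18 and 4.44 in the compound mutants and 6.17, 6.47, 6.41 and 6.32 in wild type (adjusted p = 0.102). For Tex9 the values were 7.62, 7.33, 7.04 and 7.19 and 7.87, 8.22, 7.91 and 8.44 (adjusted p = 0.0835). Neither passed the test. Their differences from Ptch+/- GNPs were -1.33 (adjusted p = 0.0812) and -0.99 (adjusted p = 0.0525). NdpKO arrays were labelled mixed and wild-type and Ptch+/- arrays C57Bl/6, while 3 of the 4 compound mutant arrays had no strain label and the study states a shared breeding cohort. The part of strain in these values was not tested.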
